A study of Mus musculus with 4 samples.

Results

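Transcript levels were followed for a run of 10 neighbouring genes on mouse chromosome 1, Odr4, Tpr, Ivns1abp, Swt1, Trmt1l, Rnf2, Fam129a, Edem3, 1700025G04Rik and Tsen15, out of 55573 genes counted. The run lies between 150361305 and 152386688 on GRCm38 (the assembly named mm10) and its genes were selected on their read density over the 4 libraries, so the levels given below are a description and carry no test. The name "highly expressed run" holds for most but not all of its genes. Of the 10 members 8 had a level per kilobase of exon above the 95th percentile of tested genes, Swt1 lay at percentile 85.3 and Fam129a at percentile 38.1.

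The RNA came from SmoWT cells, medulloblastoma cells of the Sonic Hedgehog (SHH) subtype that grow as neurospheres and derive from spontaneous tumours of mice with the genotype Ptch1+/-, Trp53-/- on the C57BL/6 strain. All 4 libraries therefore come from tumours of mice heterozygous for loss of Ptch1, the inhibitory Hedgehog receptor, and without Trp53, which encodes p53. The state of the other Ptch1 allele in the cells was not measured here. In 2 libraries the cells had received DMSO, the solvent, and in the other 2 they had received GDC0449 at 0.1 µM (the drug vismodegib, which blocks the Hedgehog signal transducer Smoothened), each for 24 h. The labels do not say whether cells of both groups came from 1 tumour or 1 line, nor whether replicates were separate cultures, so the p-values rest on a spread between libraries that may be technical.

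The members encode proteins of unrelated processes. Tpr forms the basket on the nuclear side of the nuclear pore, Rnf2 (RING1B) is the ubiquitin ligase of Polycomb repressive complex 1 that marks histone H2A, and Ivns1abp is a Kelch protein that binds actin and the influenza virus protein NS1. Trmt1l is a relative of the tRNA methyltransferase Trmt1, Tsen15 is a subunit of the endonuclease that removes introns from tRNA, and Swt1 is the relative of a yeast RNA endonuclease that monitors mRNA at the nuclear pore. Edem3 trims mannose from misfolded glycoproteins in the endoplasmic reticulum, Odr4 is the relative of a Caenorhabditis elegans protein that brings odorant receptors to cilia, and Fam129a (Niban) is a protein induced by cellular stress. No role is stated here for 1700025G04Rik.

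The promoters of the members are shown because some of these neighbours stand start to start and share promoter sequence. RefSeq (GRCm38.p6) gave 12 promoter windows of 300 bases, 250 before and 50 after a gene's start, for all 10 members, with Fam129a listed as Niban1. The windows printed are those of the member of highest level, of 1 gene of the closest pair that stands start to start without overlap, and of both members that rose with GDC0449. They are Ivns1abp (plus strand, chr1:151344236-151344535), Trmt1l (plus strand, chr1:151428292-151428591), Fam129a (plus strand, chr1:151571123-151571422) and 1700025G04Rik (minus strand, chr1:152090271-152090570). Capitals mark CG dinucleotides.
Ivns1abp: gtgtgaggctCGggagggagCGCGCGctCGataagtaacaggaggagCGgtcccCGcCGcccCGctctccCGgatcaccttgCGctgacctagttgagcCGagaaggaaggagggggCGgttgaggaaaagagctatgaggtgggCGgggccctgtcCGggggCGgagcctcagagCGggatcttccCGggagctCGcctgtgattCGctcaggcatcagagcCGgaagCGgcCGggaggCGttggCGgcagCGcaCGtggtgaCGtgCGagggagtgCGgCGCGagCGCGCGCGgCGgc
Trmt1l: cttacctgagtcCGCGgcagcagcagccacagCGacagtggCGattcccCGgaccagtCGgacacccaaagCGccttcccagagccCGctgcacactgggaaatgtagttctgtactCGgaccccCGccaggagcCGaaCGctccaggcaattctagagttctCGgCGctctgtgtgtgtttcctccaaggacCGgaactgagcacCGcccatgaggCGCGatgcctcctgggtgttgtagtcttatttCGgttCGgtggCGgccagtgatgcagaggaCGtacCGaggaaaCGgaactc
Fam129a: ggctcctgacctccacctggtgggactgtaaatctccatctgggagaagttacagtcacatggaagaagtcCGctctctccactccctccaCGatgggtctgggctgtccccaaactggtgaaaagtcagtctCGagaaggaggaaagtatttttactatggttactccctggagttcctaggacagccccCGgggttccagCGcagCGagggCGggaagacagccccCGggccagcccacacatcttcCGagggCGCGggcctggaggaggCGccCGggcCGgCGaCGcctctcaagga
1700025G04Rik: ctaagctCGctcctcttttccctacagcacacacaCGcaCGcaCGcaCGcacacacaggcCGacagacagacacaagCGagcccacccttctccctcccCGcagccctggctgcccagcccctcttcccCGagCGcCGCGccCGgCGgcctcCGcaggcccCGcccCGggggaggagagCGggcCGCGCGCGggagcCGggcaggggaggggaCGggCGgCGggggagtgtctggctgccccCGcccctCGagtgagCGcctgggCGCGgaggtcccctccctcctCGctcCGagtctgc

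The 10 members, each taken at its first listed window, held between 16 and 37 CG dinucleotides per window with a median of 25, against a median of 7 over 32851 mouse promoter windows. Ivns1abp had the most, with 37, at percentile 94.4 of all windows, and Fam129a the fewest, with 16, at percentile 67.0. The windows compared were not limited to genes expressed in these cells. The Swt1 and Trmt1l windows lie on opposite strands and share 206 bases, from 151428386 to 151428591. Exact motif letters were searched on both strands. The GLI motif GACCACCCA was in 0 of 10 member windows and in 0.253% of all windows. The ETS motif CCGGAAG was in 2, Ivns1abp and Edem3, against 8.86% of all windows, and the NF-Y motif CCAAT was in 3, Tpr, Swt1 and Edem3, against 37.4%. The cyclic AMP response element TGACGTCA and the TATA motif TATAAA were in 0 of 10, against 1.79% and 13.6% of all windows.

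Levels were measured as CPM, counts per library total with TMM scaling, and compared between genes only after division by the kilobases of annotated exon. Between 16329721 and 20790030 reads fell in genes per library, and 15472 genes passed the expression filter and were tested. Gli1, the transcription factor that reports Hedgehog activity, fell from 272 ± 12.9 CPM with DMSO to 35.8 ± 4.29 CPM with the inhibitor (SD, n = 2), an adjusted p of 1.67e-36 in edgeR. Summed markers of granule neuron progenitors, the cells that SHH medulloblastoma resembles, were 1275 and 1308 CPM with DMSO and 1406 and 1492 CPM with GDC0449. Of the 9 markers 1 (Sfrp1) was at 0, and Barhl1 had only 4 to 10 counts per library and was not tested. Zic1 gave the largest part of the sum, with means of 542 CPM with DMSO and 641 CPM with GDC0449. Among these markers Atoh1, Meis1 and Neurod1 were called higher, 1.76-fold, 1.95-fold and 1.81-fold, and Ccnd2 was called lower, 2.27-fold. Their part in the members' values was not tested. Astrocyte markers summed to 72.6 to 79.6 CPM with 2 of 4 at 0. Nearly all of that was Slc1a3, at means of 75.3 CPM with DMSO and 71.5 CPM with GDC0449, while Gfap was at 1.25 and 2.04 CPM. Oligodendrocyte markers summed to 63.3 and 63.2 CPM with DMSO and 78.9 and 79.0 CPM with GDC0449, mostly from Mbp. Microglial, endothelial, fibroblast, red blood cell and Purkinje cell or interneuron markers each stayed under 1 CPM in sum.

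The interval from the first to the last member spans 2025.38 kb and holds 38 annotated genes, of which 17 are protein-coding. Reads from its genes made up 1.86% to 1.995% of all reads in genes, with the highest share in the second DMSO library. The 10 members alone gave 1.83% to 1.96%. Their median level was 139 CPM per kb over the 4 libraries, against 5.24 CPM per kb for all tested genes with a position. The 95th percentile of those genes was 51.9 CPM per kb and the 99th was 177 CPM per kb.

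**Figure D1:**
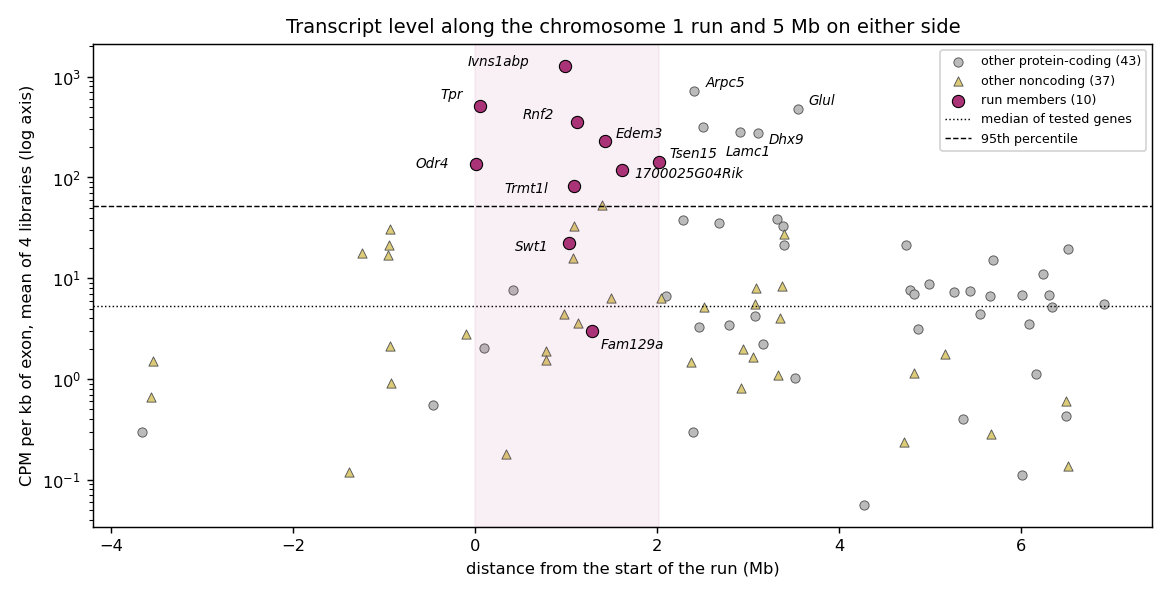
Level of each tested gene (CPM per kb of exon, mean of 4 libraries, log axis) against the distance in Mb from the start of the run, with 5 Mb on either side. Of the 10 members (large points, shaded interval) 8 lie above the dashed line at the 95th percentile, Swt1 and Fam129a lie below it, and 5 genes to the right of the interval also lie above it.

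Among the genes that act in the nucleus, Tpr was measured at 5780.1 and 5867 CPM in the solvent libraries and at 4969.7 and 4922 CPM in the inhibitor libraries. Its level per kilobase was 513 CPM per kb, the 33rd highest of the genes ranked. Both inhibitor libraries were lower than both solvent libraries, and the groups did not overlap. Rnf2 was at 1492 and 1577 CPM in DMSO and at 1358 and 1395 CPM in GDC0449, which is 353 CPM per kb over all 4 libraries, and again the groups were apart. Swt1 was at 291 and 328 CPM in DMSO and at 257 and 268 CPM in GDC0449. Because its annotated exons sum to 12865 bases, that came to 22.2 CPM per kb, which is within the range of many other genes. By its longest transcript alone Swt1 lay at percentile 93.0, and by the authors' FPKM values at percentile 94.2.

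Ivns1abp was the member of highest level, at 6811 and 7349 CPM in DMSO and 6720.7 and 6936 CPM in GDC0449. That is 1279.5 CPM per kb, the 10th highest level of the genes ranked. Its groups overlapped, since the second GDC0449 library was above the first DMSO library.

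Among the tRNA genes, Trmt1l had 703 and 711 CPM in DMSO and 625 and 657 CPM in GDC0449, or 82.1 CPM per kb over all 4. Tsen15 was at 641 and 676 CPM in DMSO and at 527 and 551 CPM in GDC0449, or 143 CPM per kb. Both genes were lower in each inhibitor library than in each solvent library. Among the genes of the endoplasmic reticulum and membranes, Edem3 was at 1513 and 1680 CPM in DMSO and at 1288 and 1369.8 CPM in GDC0449, or 229 CPM per kb. Odr4 was at 562 and 607 CPM in DMSO and at 514 and 538 CPM in GDC0449, or 135 CPM per kb. Their groups did not overlap either, although the replicates of Edem3 in DMSO stood farther apart than those of Rnf2, a member with CPM values of like size.

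The remaining members moved the other way. 1700025G04Rik was at 1011 and 1073 CPM in DMSO and at 1733 and 1728 CPM in GDC0449, or 118 CPM per kb over all 4 libraries. Fam129a was at 14.3 and 11.2 CPM in DMSO and at 31.3 and 31.9 CPM in GDC0449, from counts of 281, 180, 659 and 673. Its level of 3.003 CPM per kb was below the median of all tested genes in spite of its place inside the run. In order of level per kilobase the members ran Ivns1abp, Tpr, Rnf2, Edem3, Tsen15, Odr4, 1700025G04Rik, Trmt1l, Swt1 and Fam129a. The ranges over the 4 libraries overlapped between Tsen15 and Odr4, between Odr4 and 1700025G04Rik and between 1700025G04Rik and Trmt1l, and the other neighbours in that order stood apart. The order changed with the length used. By the authors' FPKM values Tsen15 (329) was above Rnf2 (304), and Trmt1l (166) was above Edem3 (153). By the longest transcript Tsen15 (248 CPM per kb) was above Edem3 (231), and Trmt1l (199) was above Odr4 (170). Per kilobase of all annotated exon, 1700025G04Rik with GDC0449 at 146.8 ± 0.249 CPM per kb was above Tsen15 at 129 ± 4.13 CPM per kb (SD, n = 2). With DMSO it was below it, at 88.4 ± 3.70 against 157 ± 5.96 CPM per kb. This crossing depended on the length used. In the authors' FPKM values 1700025G04Rik was below Tsen15 in both groups, at 75.9 against 360 with DMSO and 128 against 297 with GDC0449. The groups did not overlap for 9 of the 10 members, 2 higher and 7 lower with GDC0449. That was common in these data, with 2 libraries a group. The groups did not overlap for 65.8% of all tested genes, 33.6% higher and 32.2% lower. Just inside the level that set most members apart stood Trmt1l at 82.1 CPM per kb, and just outside it Swt1 at 22.2 CPM per kb.

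**Figure D2:**
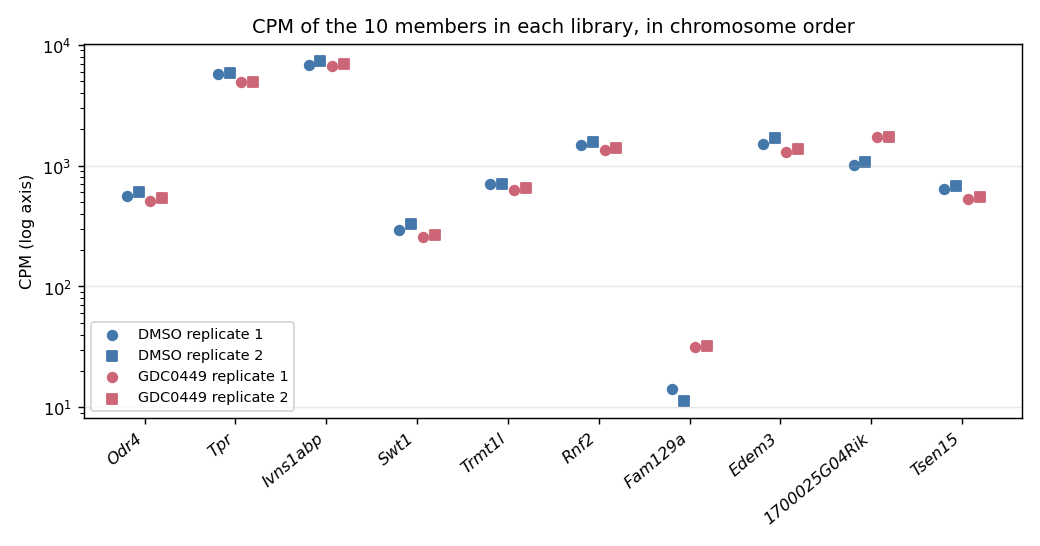
CPM of each member in each of the 4 libraries (log axis), in chromosome order, with circles for replicate 1 and squares for replicate 2. Fam129a and 1700025G04Rik are higher in both GDC0449 libraries, Ivns1abp overlaps between the groups, and the other 7 members are lower in both GDC0449 libraries. Over all tested genes the groups did not overlap for 65.8%, 33.6% higher and 32.2% lower.

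The design asks which transcripts differ after 24 h of Smoothened inhibition. With edgeR's quasi-likelihood test over all 15472 tested genes, calls needed an adjusted p (Benjamini-Hochberg) under 0.05 together with more than a 1.5-fold difference. All 10 members passed the expression filter. Of them 2 were called higher, Fam129a and 1700025G04Rik, where 8.68% of all tested genes were called higher. None, 0 of 10, was called lower, where 3.85% of all tested genes were. At adjusted p alone the counts were 2 higher and 7 lower, where 18.1% of all tested genes were higher and 18.1% were lower.

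Fam129a rose 2.46-fold, from 12.7 ± 2.21 to 31.6 ± 0.442 CPM (SD, n = 2), with a log2 fold change of 1.30 ± 0.11 (SE) and an adjusted p of 1.24e-14 in edgeR. 1700025G04Rik rose 1.66-fold, from 1042 ± 43.6 to 1730.4 ± 2.94 CPM (SD, n = 2), with a log2 fold change of 0.73 ± 0.06 and an adjusted p of 5.25e-16 in edgeR. On the scale log2(FPKM + 1), which compresses low values, Fam129a differed by 0.55 and no longer passed the fold threshold. These libraries are bulk RNA, in which a change in the share of cells of a kind and a change in RNA per cell cannot be told apart.

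The 7 members that were lower at adjusted p alone differed by little. Their log2 fold changes ran from -0.29 ± 0.06 for Tsen15 to -0.14 ± 0.06 for Trmt1l, with Edem3 at -0.26, Tpr and Swt1 at -0.24, Rnf2 at -0.16 and Odr4 at -0.15. The smallest adjusted p in edgeR was 6.70e-05, for Tsen15, and the largest was 0.0477, for Trmt1l. Ivns1abp was at -0.05 ± 0.06 with an adjusted p of 0.509, and its 95% interval on the log2 scale ran from -0.16 to 0.06. Leaving out a library leaves its group with 1, which is then assumed to vary like the other group. Without the second DMSO library 0 members were lower at adjusted p alone, and without the first DMSO, the first GDC0449 or the second GDC0449 library the number was 4, 2 and 3. The log2 fold changes of the 7 members kept their sign in these fits, with Tpr at -0.25 to -0.23, Tsen15 at -0.33 to -0.26 and Edem3 at -0.34 to -0.20.

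The lower values of the members were set beside those of other abundant transcripts. The median log2 fold change of the 10 members was -0.15, against 0.01 for all tested genes. Over the 773 tested genes above the 95th percentile of level, 8 members among them, it was -0.11. Of those 773 genes 331, or 42.8%, were lower at adjusted p alone, and 28 were called higher and 41 lower. 1700025G04Rik was 1 of those 28. Of the 8 members in that set, all but Ivns1abp and 1700025G04Rik were lower at adjusted p alone. Tsen15 (-0.29), Edem3 (-0.26) and Tpr (-0.24) lay farthest below the median of -0.11. The cause was not tested.

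**Figure D3:**
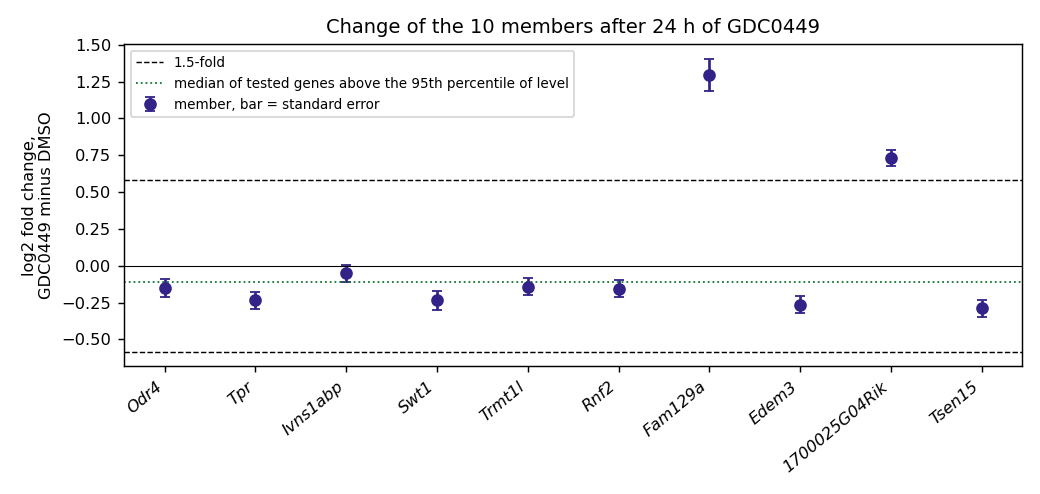
Log2 fold change of each member, GDC0449 minus DMSO, from edgeR with its standard error. Fam129a (1.30) and 1700025G04Rik (0.73) lie above the dashed line for 1.5-fold, and the other 8 lie between -0.29 and -0.05. The dotted line at -0.11 is the median of genes above the 95th percentile of level. Tsen15, Edem3, Tpr and Swt1 lie farthest below it.

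The high levels within the interval belonged to some genes and not to those beside them. Of the 28 other annotated genes of the interval 11 were tested and 1 lay above the 95th percentile, the long noncoding RNA 2810414N06Rik at 53.9 CPM per kb. It stands start to start with Edem3, 352 bases away, and was at -0.28 on the log2 scale (adjusted p = 0.00168 in edgeR), so it was lower at adjusted p alone, as Edem3 was. Prg4, the gene of the joint lubricant lubricin, lies next to Tpr and was at 2.02 CPM per kb. Hmcn1, which encodes the extracellular matrix protein hemicentin, was at 7.72 CPM per kb, with a log2 fold change of 0.34 and an adjusted p of 1.92e-05, below the fold threshold. The other coding genes of the interval, Gm47985, Gm8947, Gm47995, 3110040M04Rik and Gm47996, had a mean of at most 4.5 counts and were not tested.

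Several genes of the interval overlap, and the strand setting of the counting is not given, so reads of overlapping genes are uncertain. Odr4 and Tpr stand start to start and overlap by 243 bases, Tpr and Prg4 meet end to end with an overlap of 524 bases, and Trmt1l and Rnf2 overlap end to end by 158 bases. Swt1 and Trmt1l stand start to start 86 bases apart. Exons shared with another gene made up 5.13% of Ivns1abp, 4.29% of Odr4, 3.83% of Rnf2, 3.62% of Tpr, 2.82% of 1700025G04Rik and 1.92% of Trmt1l, and 0 of the others. The antisense gene Gm10138, which overlaps the start of Ivns1abp by 755 bases, was at 4.37 CPM per kb. Inside Trmt1l and on its strand, Gm37893 was at 32.9 CPM per kb and the microRNA gene Mir7682 had a mean of 18.2 counts. Gm36527 lies inside Rnf2 and was at 3.60 CPM per kb. The remaining noncoding genes with at least 10 counts on average, Gm20631, Gm8941, C730036E19Rik and Gm25279, had means of 17 to 33.5 counts. Of all these noncoding genes only 2810414N06Rik passed adjusted p alone.

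High levels did not stop at the last member. Before the run, the nearest tested coding genes were Pla2g4a, a cytosolic phospholipase, 400.02 kb away at 0.557 CPM per kb, and Brinp3, 3459 kb away at 0.298 CPM per kb. These were the only tested coding genes of the 5 Mb before it, and 0 of 12 tested genes there lay above the 95th percentile. After the run, Colgalt2, a collagen galactosyltransferase, followed at 13.1 kb with 6.74 CPM per kb, then Rgl1, an activator of the GTPase Ral, with 37.6, Apobec4 with 0.299, and Arpc5, a subunit of the actin-nucleating Arp2/3 complex, with 721 CPM per kb. Farther on, Lamc1, Dhx9 and Glul were at 282, 275 and 481 CPM per kb (these 3 were chosen after their values were seen). All 5 genes above the 95th percentile lay within 1513 kb of the run, and from 2 to 5 Mb after it 0 tested genes lay above the 90th percentile.

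The flanking genes were compared between the groups in the same test. Colgalt2 was called higher, from 20.4 ± 1.76 to 36.7 ± 0.572 CPM (SD, n = 2), with a log2 fold change of 0.84 ± 0.10 and an adjusted p of 1.90e-10 in edgeR. Rgl1 was at 0.33 on the log2 scale, under the fold threshold. Arpc5 was at -0.05 with an adjusted p of 0.519 in edgeR. Apobec4 and Brinp3 passed as higher from few reads, with mean counts of 9.5 and 41. Without the first DMSO library neither was called, with Apobec4 at 1.54 and Brinp3 at 0.25 on the log2 scale. Of 57 tested genes in the 5 Mb after the run 13 were called higher and 4 lower, where 8.68% and 3.85% of all tested genes were, and of the 11 tested genes of the interval that are no members 0 were called, with 1 higher and 1 lower at adjusted p alone.

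The members were also set against runs elsewhere, as the median level of 10 tested protein-coding genes in a row. Over 12397 such windows the median was 7.16 CPM per kb and the 95th percentile was 16.9 CPM per kb. The window from Odr4 to Edem3, which holds 8 members beside Prg4 and Hmcn1, had 105 CPM per kb and ranked 4th, and the windows ranked 5th, at 98.3 CPM per kb, held 6 or 8 members each. With noncoding genes included, the best window of the run ranked 15th of 15265. The highest, at 172 CPM per kb, held the genes of the mitochondrial chromosome from mt-Nd1 to mt-Nd5. The runs most like it in median level on nuclear chromosomes were Os9 to Ddit3 on chromosome 10 at 87.9 CPM per kb (highest gene Dctn2 at 145), Ttc32 to Nbas on chromosome 12 at 59.4 (highest gene Ddx1 at 727), and Cct2 to Rap1b on chromosome 10 at 56.2 (highest gene Cct2 at 841), the last of which was added after its values were seen. The chromosome 12 run also contains Mycn, the oncogene, which stood at 1309 ± 36.6 CPM with DMSO and 899 ± 19.6 CPM with GDC0449 (SD, n = 2), and the Cct2 run contains Mdm2, the gene of a p53 ligase. Copy number was not measured in these data.

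**Figure D4:**
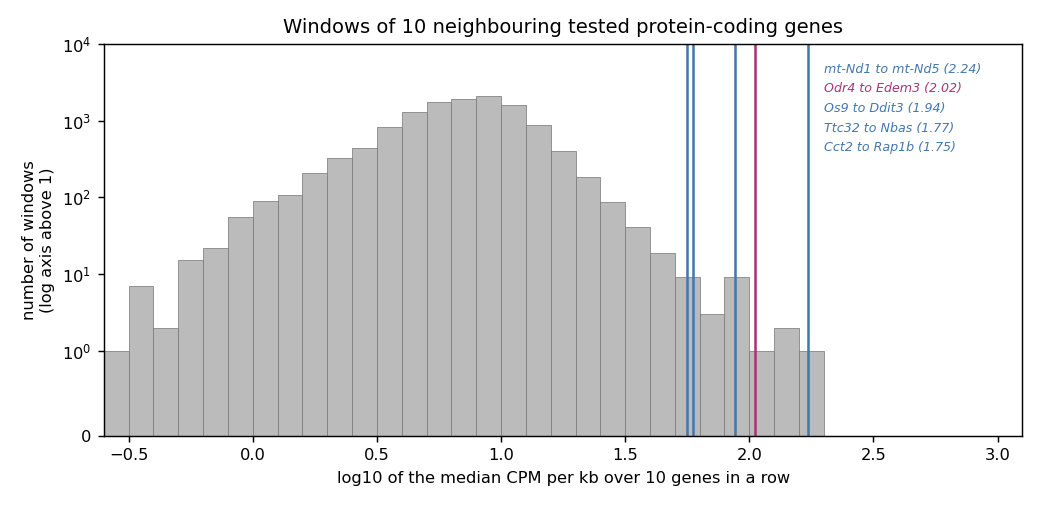
Number of windows (log axis above 1) by log10 of the median level in CPM per kb over 10 tested protein-coding genes in a row. The line for Odr4 to Edem3 stands at 2.02, above those of the chromosome 10 and 12 runs and below that of the mitochondrial genes at 2.24.

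Each member except 1700025G04Rik was set beside genes that work with it or are related to it, in 9 lists. In 6 of the 9 lists the member had the highest level per kilobase, and in 8 it was above the median of the others. The members were selected on read density, so a high place in these lists was favoured in advance and carries no test. By the authors' FPKM values the member was highest in 5 of the 9, since Edem3 was then second in its list. Tpr, at 513 CPM per kb, was 27.0 times the median of 30 other nuclear pore genes, of which Nup107 was next at 101. Of those 30 genes 0 were called and 19 were lower at adjusted p alone, where 18.1% of all tested genes were lower. Rnf2, at 353 CPM per kb, was 30.8 times the median of 19 other Polycomb genes, with Bmi1, its partner subunit, at 47.6 and its paralog Ring1 at 11.4.

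Ivns1abp, at 1279.5 CPM per kb, was 203 times the median of 27 other Kelch and Cul3 ligase genes, of which the scaffold Cul3 was highest at 53.3. Klhl5 was called higher, and Enc1 and Kbtbd6 were called lower. Trmt1l, at 82.1 CPM per kb, was 9.50 times the median of 19 other tRNA modifiers and above its relative Trmt1 at 17.0. The only call in that list was the tRNA methyltransferase Mettl1, the highest of the others at 31.4 CPM per kb, which was lower with a log2 fold change of -0.59. Tsen15, at 143 CPM per kb, stood against 28.3 for Tsen34 and 8.99 for Tsen54, which are subunits of the same enzyme, and below the tRNA ligase factor Ddx1 at 727.

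Edem3, at 229 CPM per kb, stood against 6.32 for Edem1 and 8.15 for Edem2, its paralogs, and was close to the chaperone Calr at 223, the next in its list. In the GDC0449 libraries alone Edem3, at 208 CPM per kb, was second. Herpud1, a scaffold of endoplasmic reticulum degradation, fell with a log2 fold change of -1.05, and the mannosidase Man1c1 rose with 0.63. Odr4, at 135 CPM per kb, was 8.98 times the median of 15 other trafficking genes, of which Rab10 was highest at 31.2. There Reep2 and Reep6, which shape endoplasmic reticulum membranes, were called lower. Swt1, at 22.2 CPM per kb, was the 8th in a list of 20 RNA surveillance and export genes, led by the helicase Ddx39b at 135. The exosome nuclease Dis3 was the only one called there, lower with a log2 fold change of -0.63. The calls of Klhl5, Enc1, Kbtbd6, Mettl1, Man1c1, Reep2, Reep6 and Dis3 each fell short of a threshold under at least 1 alternative.

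Fam129a had the lowest level of the 21 tested genes of its list, which joins its paralogs to genes of the integrated stress response, in the mean of all 4 libraries, at 0.104 times the median of the others. It was the lowest with DMSO, at 1.73 CPM per kb, and the 6th lowest with GDC0449, at 4.28 CPM per kb. Of the 20 others 15 were called lower and 1 higher, and their median log2 fold change was -1.32. Trib3, a pseudokinase, fell 8.53-fold, and the glutathione-degrading enzyme gene Chac1 fell 5.22-fold. Atf4, the transcription factor of the response, fell 2.05-fold and Ddit3 (CHOP) fell 3.13-fold. Fam129a rose while these fell, and its paralog Fam129b was the 1 other gene of the list called higher, with a log2 fold change of 0.77. The third paralog, Fam129c, was at -0.27 with an adjusted p of 0.113 in edgeR. Over all 9 lists 180 other genes were tested, of which 3 were called higher (1.67%) and 24 lower (13.3%). Over all tested genes the shares were 8.68% and 3.85%. Of the 24 called lower 15 were of the stress list. The lists were chosen with earlier results of these data known, so these shares and those within each list carry no test. Nup107, Ddx1, Os9 and Ddit3 themselves lie in the high windows of chromosomes 10 and 12 (an overlap noticed after their values were seen).

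**Figure D5:**
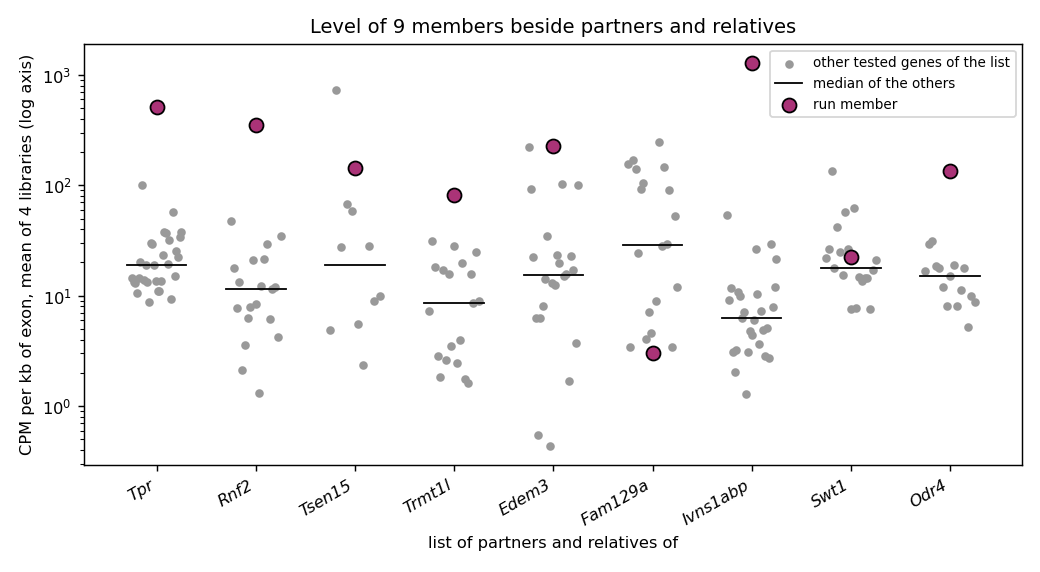
Level in CPM per kb of exon (mean of 4 libraries, log axis) of 9 members, large points, beside the other tested genes of their lists, small points, with a line at the median of the others. Ivns1abp, Tpr and Rnf2 stand farthest above their lists, and Fam129a is the lowest gene of its list in this mean.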

How the data were processed

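RNA was sequenced from 2 DMSO and 2 GDC0449 libraries. The submitters' processing notes name Trim Galore for trimming, HISAT2 for mapping to mm10, HTSeq 0.11.1 for counting and DESeq2 1.26.0 for the authors' test. Raw counts per gene were deposited beside FPKM values made by the authors, per the labels, from read number, length and depth. Not given in the sources used here are the annotation release, the strand setting and the FPKM tool.

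Here, 6 entries that name no gene were left out, with 12.3% to 14.4% of all reads in no feature, 4.73% to 4.91% ambiguous and 10.4% to 10.7% aligned more than once. Gene positions and exon lengths came from GENCODE M21 (GRCm38), in which 55394 of 55573 identifiers were found. The deposited counts were analysed in R 4.3.3 with edgeR 4.0.16 (TMM scaling, default expression filter, quasi-likelihood test, group as the only term, Benjamini-Hochberg adjustment over 15472 genes). The script was tested on simulated counts. The biological coefficient of variation was 4.82%. The gene levels are CPM divided by the summed length of all annotated exons in kb, and ranks and percentiles are over the 15462 tested genes with a position. Chi-square values per gene between replicates were 3.95 (DMSO) and 3.17 (GDC0449), above sampling noise, so all 4 libraries were kept apart.

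The members and the partner lists were chosen with earlier results of these data known. Named are all 10 members, the other genes of the interval with at least 10 counts on average or coding for protein, the 5 nearest tested coding genes on each side, the called and the highest genes of each list, and 3 other windows of highest level. Some genes under that rule are not reported here. Relatives of a member named beside it fall outside that rule, as picks made once values had been seen. Alternatives tried were other scalings, filters, DESeq2 1.42.0, limma-voom, limma 3.58.1 on log2(FPKM + 1), a replicate block and leaving out each library.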

Additional observations from a re-analysis of the deposited data

How the results depend on the processing

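The count of members called higher stayed at 2 under every alternative except log2(FPKM + 1) with limma, where it was 1. The count called lower stayed at 0 except at adjusted p alone, where it was 7. That count of 7 became 5 with DESeq2, 4 with the filter at 5 CPM in 2 libraries, 4 with upper-quartile scaling, 2 with no filter, 0 on log2(FPKM + 1), and 0 to 4 when 1 library was left out. In the lists of partners and relatives the count called higher ranged from 1 to 3 with 1 library left out, and at adjusted p alone 13 were higher and 72 lower. Those 72 were 40% of the 180 list genes tested, where 18.1% of all tested genes were lower and 18.1% higher at adjusted p alone. The lists were chosen with earlier results of these data known, so that share carries no test. The members' median level was 139 CPM per kb, 215 CPM per kb by the longest transcript and 160 by FPKM (159.7). The run's best window ranked 15 when noncoding genes were included, and 3 for windows of 6 and of 15 genes. The cause of these differences was not tested.

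The replicate numbers did not pair the libraries (correlation of deviations 0.061, 2 pairs), and with the replicate block 7 members were lower at adjusted p alone and 2 were called higher, as without it.

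Reversed signs occurred only in 4 noncoding genes near no change. On the log2 scale Gm8941 was at -0.044 (FPKM) and -0.055 to 0.33 with a library left out, including -0.00186 without the first DMSO library. Gm10138 was at -0.013 (limma-voom), -0.17 (FPKM), -0.00345 (no filter), -0.00107 (relative log expression), -0.00612 (replicate block), and -0.26 to 0.23 with a library left out. Mir7682 was at -0.18 (FPKM) and -0.24 to 0.50 with a library left out. Gm36527 was at 0.00962 (5 CPM filter), 0.00031 (FPKM), 0.015 (upper quartile), and -0.15 to 0.10 with a library left out.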
